A study of Mus musculus with 6 samples.

Results

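The Eph receptors and ephrins of the intestinal crypt were followed in total epithelial cell preparations from the jejunum of mice, a segment of the small intestine. The 10 genes listed were chosen by name, namely the receptor genes Ephb2, Ephb3, Ephb4, Ephb6, Epha1 and Epha2 and the ephrin genes Efna1, Efna4, Efnb1 and Efnb2. The choice was made with earlier results of these data known. A gene entered through an array row annotated with exactly 1 gene symbol, and through its row with the highest mean where there were several. By this rule 9 of the 10 were found among 19938 named genes, each with 1 row, and Ephb2 is not analysed here. The transgenic group held 3 arrays from mice with a doxycycline-driven Musashi transgene (TRE) and the activator R26-M2rtTA, and the control group held 3 arrays from mice with R26-M2rtTA alone. R26 is the broadly active Rosa26 locus, so the activator is not restricted to one cell type by its promoter. Mice of both groups drank doxycycline for 24 h before isolation of the cells, and no array came from a mouse without it. The labels state neither age nor strain.

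Eph receptors are receptor tyrosine kinases, and their ligands, the ephrins, are bound to the membrane of neighbouring cells, so the pair signals where cells touch. A-type ephrins hold to the membrane by a lipid anchor, and B-type ephrins span it and can signal into their own cell (reverse signalling) while the receptor signals into the other (forward signalling). In the intestine EphB receptors are known as Wnt targets that are highest towards the crypt base, with B-type ephrins higher towards the villus, and this opposed pattern is known to keep Paneth and progenitor cells in their places.

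The transgene is written TRE-Msi1 in the series text, but TRE-MSI2 in the genotype labels. Msi1 had log2 signals of 12.51, 12.68 and 12.62 on the transgenic arrays, against 6.95, 7.03 and 6.86 on the control arrays, a rise of 5.66 (SE 0.0894, limma adjusted p = 1.34e-05). Msi2 averaged 8.22 ± 0.30 on the transgenic and 8.64 ± 0.06 on the control arrays (mean log2 signal ± SD, n = 3 each), which missed the threshold (adjusted p = 0.168) unless transgenic replicate 1 was left out (adjusted p = 0.0011, lower). Transgenic replicate 1 stood apart, with a correlation across genes of 0.922 to 0.952 with the other arrays, against 0.996 between transgenic replicates 2 and 3 and 0.995 to 0.996 between controls. Taken minus the control mean, the median of 12 villus enterocyte markers was -2.49 on it, and -0.16 and -0.20 on the other transgenic arrays. The medians of 14 Wnt target genes and of 11 crypt base markers lay at 0.65 and 0.78 on transgenic replicate 1, at -0.26 and -0.50 on replicate 2 and at -0.03 and -0.57 on replicate 3. The Eph and ephrin results below, and the counts of the lists set beside them, are therefore also given without that array, a fit in which 28.6% of all genes passed. On transgenic replicate 1, 45.6% of all genes were below all controls and 32% above all controls, the shares against which counts on that array are set. Epithelial markers were bright on every array, with a list mean of 11.09 to 11.26 on the transgenic and 11.29 to 11.31 on the control arrays. Of these 10 markers 1 passed, as higher (10% against 11.9% of all genes). Without transgenic replicate 1, 4 passed, 1 higher and 3 lower (40% against 28.6% of all genes). On that array 7 of the 10 were below all controls, against 45.6% of all genes.

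Among the 9 measured genes, 3 passed (limma adjusted p under 0.05), with Epha2 and Efnb2 higher and Efna4 lower in the transgenic epithelium. Among all 19938 genes 11.9% passed, 6.04% as higher and 5.84% as lower. The transgenic and control arrays did not overlap for 6 of the 9 genes, 2 above and 4 below. Groups that do not overlap were found for 34.2% of all genes, 16.0% above and 18.2% below. The median difference of the 9 genes was -0.47, against -0.04 over all genes, and -0.26 against -0.03 without transgenic replicate 1. In a fit without transgenic replicate 1, 6 of the 9 passed (2 higher, 4 lower), against 28.6% of all genes (14.0% higher, 14.5% lower), and Ephb3, Ephb4 and Epha1 joined as lower. Whether a smaller signal means fewer cells of a type or less RNA per cell cannot be told from bulk RNA.

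**Figure D1:**
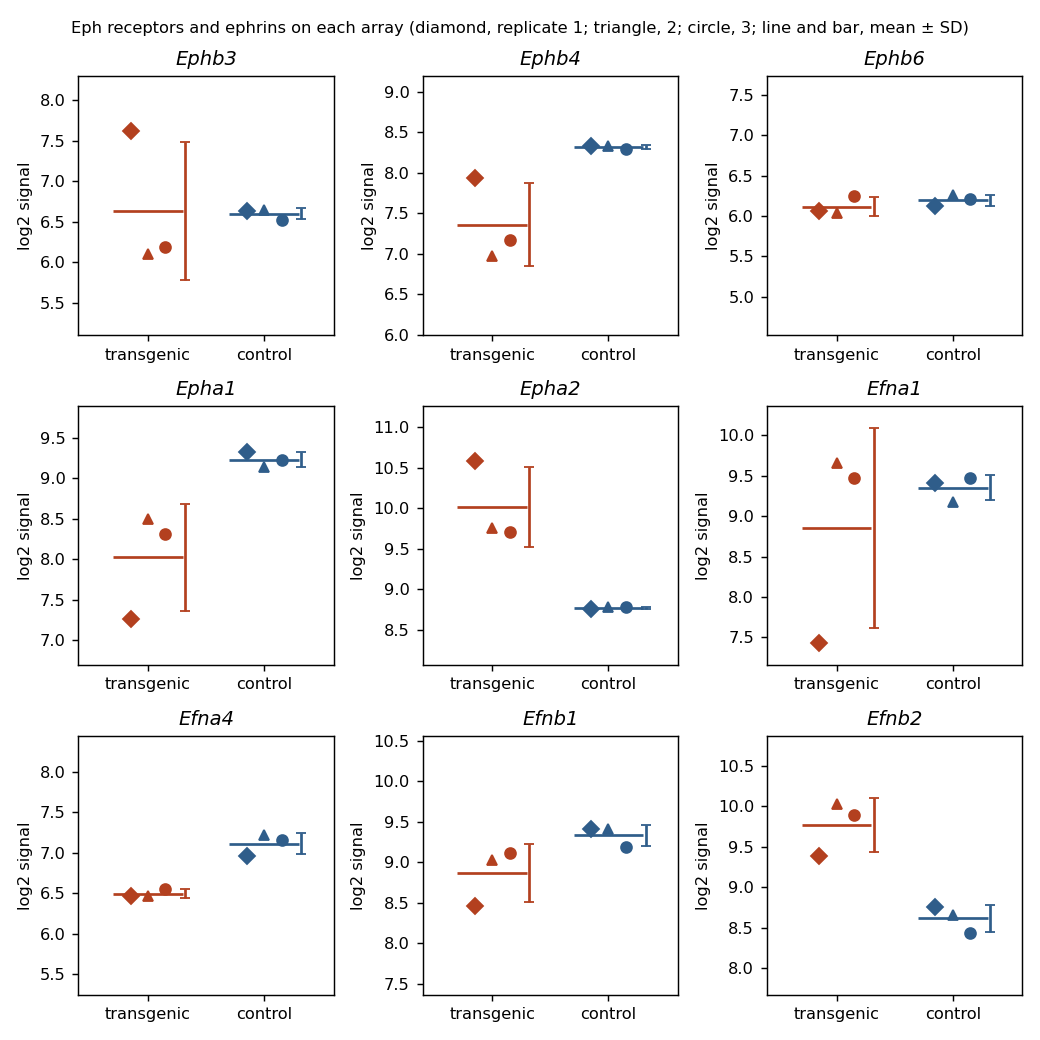
Log2 signal (y axis, each panel spanning the same number of log2 units) of the 9 measured Eph receptors and ephrins on each of the 3 transgenic and 3 control arrays, with the group mean and SD. Epha2 and Efnb2 lie higher and Efna4 lower on every transgenic array than on any control array, and transgenic replicate 1 (diamond) departs from the other transgenic arrays for Ephb3, Epha1 and Efna1.

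The sequences upstream of the genes that passed are shown because these 3 genes carry the calls among the crypt genes, and that of Efna3 because this neighbour of Efna4 fell with it. They are the 250 bases before the RefSeq start of each gene on build GRCm38.p6, 5′ to 3′ on the gene's strand, with the upstream start of Efna3 used of its pair of starts. Capitals mark a match on either strand to the TCF/LEF core CTTTGA, the cAMP response element TGACGTCA, the GC box GGGCGG or the AP-1 element TGANTCA.
Epha2, chr4:141300971-141301220, plus strand: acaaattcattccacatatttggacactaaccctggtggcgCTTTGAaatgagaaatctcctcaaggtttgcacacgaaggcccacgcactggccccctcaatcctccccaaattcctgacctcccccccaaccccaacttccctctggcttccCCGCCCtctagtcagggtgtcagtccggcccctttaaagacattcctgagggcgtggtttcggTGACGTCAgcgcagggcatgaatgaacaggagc
Efnb2, chr8:8661243-8661492, minus strand: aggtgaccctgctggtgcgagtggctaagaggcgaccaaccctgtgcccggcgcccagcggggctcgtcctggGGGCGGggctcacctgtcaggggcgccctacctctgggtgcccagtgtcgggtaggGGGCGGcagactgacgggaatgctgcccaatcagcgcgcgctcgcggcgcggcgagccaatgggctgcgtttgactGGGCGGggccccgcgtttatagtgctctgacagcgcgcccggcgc
Efna4, chr3:89338029-89338278, minus strand: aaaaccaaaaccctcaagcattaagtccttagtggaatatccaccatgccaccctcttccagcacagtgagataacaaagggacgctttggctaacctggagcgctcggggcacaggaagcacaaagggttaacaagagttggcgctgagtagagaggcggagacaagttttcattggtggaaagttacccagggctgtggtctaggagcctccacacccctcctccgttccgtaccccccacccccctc
Efna3, chr3:89322940-89323189, minus strand: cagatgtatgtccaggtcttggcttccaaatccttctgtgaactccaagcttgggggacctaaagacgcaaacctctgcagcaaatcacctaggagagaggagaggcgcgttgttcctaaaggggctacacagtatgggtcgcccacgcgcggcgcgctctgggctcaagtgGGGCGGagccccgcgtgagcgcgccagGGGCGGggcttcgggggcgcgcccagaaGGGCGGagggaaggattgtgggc
The Epha2 window held a TCF/LEF core, a cAMP response element and a GC box, whose first letters lay 209, 33 and 96 bases before the start. The Efnb2 window held 3 GC boxes, the Efna3 window shown held 3 GC boxes, and the Efna4 window held a match to no searched motif. Over the 10 windows of the 9 measured genes (Efna1 has a pair of starts), the TCF/LEF core and the cAMP response element were found in 1 window each, that of Epha2, the GC box in 8 and AP-1 in 0. Among 32851 promoter windows of the same length the shares were 13.8% for the TCF/LEF core, 1.55% for the cAMP response element, 32.7% for the GC box and 6.75% for AP-1. A match is a run of letters and not a shown binding site, and these windows leave out enhancers and introns.

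Epha2, a receptor of A-type ephrins known as a growth factor and p53 responsive gene, had the largest rise of the 9 genes with all arrays. Its log2 signal (row 10509965, chromosome 4) was 10.58, 9.75 and 9.71 on transgenic replicates 1 to 3, against 8.75, 8.78 and 8.78 on the controls. All 3 transgenic arrays were higher than all 3 controls, which lay within a few hundredths of each other, and replicate 1 was the highest. The mean was 10.01 ± 0.49 in the transgenic and 8.77 ± 0.02 in the control group (SD, n = 3 each), a rise of 1.25 or 2.37-fold (SE 0.238, 95% interval 0.67 to 1.83, limma adjusted p = 0.0245). Leaving out transgenic replicate 1 gave a rise of 0.96 or 1.95-fold (adjusted p = 7.18e-05), smaller than the 1.34 of Efnb2 in that fit. The call was lost without transgenic replicate 2 or any 1 control, with adjusted p of 0.0518 to 0.105 and rises of 1.24 to 1.38.

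Epha1, an epithelial receptor of A-type ephrins, pointed the other way from Epha2. Its log2 signal (row 10544417, chromosome 6) was 7.26, 8.50 and 8.31 on the transgenic arrays, against 9.33, 9.14 and 9.23 on the controls. The groups did not overlap, and transgenic replicate 1 was the lowest array. The difference of -1.21 did not pass (SE 0.32, 95% interval -1.99 to -0.43, limma adjusted p = 0.0649), and Epha1 fell without transgenic replicate 1, by 0.83 or 1.78-fold lower (adjusted p = 4.46e-04). On that array all 12 villus enterocyte markers were below all controls, as were 45.6% of all genes. Of these markers 0 passed with all arrays, against 11.9% of all genes. Without transgenic replicate 1, 5 of the 12 passed as lower, against 14.5% of all genes. For 8 of the 12 every transgenic array was below every control array, as for Epha1, against 18.2% of all genes. The part of villus enterocytes in the Epha1 difference was not tested.

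The B-type receptors had no shared direction when all arrays were used. Ephb3, the receptor known to position Paneth cells, had log2 signals of 7.62, 6.10 and 6.19 on the transgenic arrays (row 10434559, chromosome 16), against 6.63, 6.65 and 6.52 on the controls. It was high on transgenic replicate 1 and low on replicates 2 and 3, so that the group mean of 6.64 ± 0.85 in transgenic and 6.60 ± 0.07 in control arrays (SD, n = 3 each) stands over opposite departures of 1.02, -0.50 and -0.41 from the control mean. The difference was 0.04 (95% interval -0.95 to 1.02, limma adjusted p = 0.972), and -0.45 without transgenic replicate 1, where Ephb3 fell (adjusted p = 0.00489). Leaving out control replicate 3 gave 0.00 to 2 decimals with a negative sign (-0.0037).

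The departures of Ephb3 ran with the medians of Paneth markers and proliferation genes, but not with every crypt gene. Of 20 measured Wnt target and crypt base genes, 14 were above and 6 below all controls on transgenic replicate 1. The shares of all genes there were 32% and 45.6%. Among the 6 below were Olfm4, Ascl2 and Sp5, at -3.08, -0.90 and -0.46 from the control mean. Of 6 measured Paneth markers all 6 were above all controls on transgenic replicate 1, with a median of 0.93 (32% of all genes were above all controls there), and their medians were -1.09 and -1.14 on replicates 2 and 3. The list mean of these markers was 11.92, 9.65 and 9.56 on transgenic replicates 1 to 3, against 10.74 to 10.88 on the controls. Of 11 proliferation genes all 11 were above all controls on replicate 1, and their medians were 0.72, -0.57 and -0.40 on the transgenic arrays. With all arrays 0 genes of either list passed, against 11.9% of all genes. Leaving out that array, 6 of the 6 Paneth markers and 7 of the 11 proliferation genes passed as lower, as Ephb3 did, against 14.5% of all genes. The part of these cells in the Ephb3 values was not tested.

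Ephb4, the receptor of ephrin-B2 that is also known as a marker of veins, had log2 signals of 7.94, 6.97 and 7.17 on the transgenic arrays (row 10526566, chromosome 5), against 8.34, 8.34 and 8.29 on the controls. Every transgenic array was lower than every control array, and replicate 1 was nearest to the controls. The difference of -0.96 did not pass (SE 0.248, 95% interval -1.56 to -0.36, limma adjusted p = 0.0607). In the fit without transgenic replicate 1 Ephb4 fell by 1.25, or 2.38-fold lower (adjusted p = 4.34e-05), and only 1.21% of all genes then had a lower difference. Of 13 endothelial markers 0 passed with all arrays, against 11.9% of all genes. Without replicate 1 there was 1, Esam, named after its value was seen, which passed as lower (-0.59, adjusted p = 0.0153), or 7.69% against 28.6% of all genes. Their list mean was 5.65 to 5.79 on the transgenic and 5.80 to 5.82 on the control arrays, and the list median moved by -0.08, -0.16 and 0.02 from the control mean on the transgenic arrays. The files give no detection calls, so which of these markers were at background is not known.

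Ephb6, a receptor whose kinase domain is known to be inactive, did not pass in either direction. The log2 signals were 6.06, 6.04 and 6.25 on the transgenic arrays (row 10537657, chromosome 6), against 6.13, 6.26 and 6.21 on the controls, and the groups overlapped. The difference was -0.08 with a 95% interval of -0.31 to 0.15 (limma adjusted p = 0.696), and -0.05 without transgenic replicate 1 (adjusted p = 0.804).

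Among the ligands Efnb2 rose. It encodes ephrin-B2, the transmembrane ligand of Ephb4 and of other EphB receptors, also known as a marker of arteries. On the transgenic arrays its log2 signals were 9.39, 10.03 and 9.89 (row 10576911, chromosome 8), against 8.76, 8.66 and 8.44 on the controls. All transgenic arrays were higher than all controls, with replicate 1 the lowest of them. The group means were 9.77 ± 0.34 in transgenic and 8.62 ± 0.16 in control arrays (SD, n = 3 each), a rise of 1.15 or 2.22-fold (SE 0.188, 95% interval 0.69 to 1.61, limma adjusted p = 0.0153). Without transgenic replicate 1 the rise was 1.34 or 2.53-fold (adjusted p = 7.84e-05). The call was lost without any other single array, with adjusted p of 0.0505 to 0.0725 and rises of 1.02 to 1.22. Efnb2 and its receptor Ephb4 had differences of opposite sign on each of the 3 transgenic arrays.

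Efnb1, the other transmembrane ligand among the crypt genes, did not share the rise of Efnb2. Its log2 signals were 8.46, 9.03 and 9.11 on the transgenic arrays (row 10600936, chromosome X), against 9.41, 9.41 and 9.19 on the controls. The groups did not overlap, although transgenic replicate 3 lay close to control replicate 3. The difference was -0.47 (95% interval -0.93 to -0.01, limma adjusted p = 0.192), and -0.26 without transgenic replicate 1 (adjusted p = 0.0888), neither of which passed. The 95% intervals of the Efnb1 and Efnb2 differences did not overlap, and the difference between them was not tested.

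Efna4, a lipid-anchored ligand of EphA receptors, fell. The log2 signals were 6.47, 6.47 and 6.56 on the transgenic arrays (row 10499552, chromosome 3), against 6.96, 7.22 and 7.16 on the controls. The transgenic arrays lay close together and below all controls, and replicate 1 did not stand apart from the others. The group means were 6.50 ± 0.05 in transgenic and 7.11 ± 0.13 in control arrays (SD, n = 3 each), and Efna4 fell by 0.62, or 1.53-fold lower (SE 0.0959, 95% interval -0.85 to -0.38, limma adjusted p = 0.0129). Efna4 fell by 0.60 without transgenic replicate 1 (adjusted p = 0.00249). The call was lost without transgenic replicate 2 or control replicate 2 or 3, with adjusted p of 0.0527 to 0.0667 and differences of -0.60 to -0.57.

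Efna1, the ligand best known for binding Epha2, was decided by 1 array. Its log2 signals were 7.44, 9.66 and 9.47 on the transgenic arrays (row 10499536, chromosome 3), against 9.41, 9.17 and 9.47 on the controls. Minus the control mean it stood at -1.92 on transgenic replicate 1 and at 0.31 and 0.11 on replicates 2 and 3. The difference of -0.50 did not pass (95% interval -1.91 to 0.92, limma adjusted p = 0.689) and had the opposite sign without transgenic replicate 1, at 0.21 (95% interval -0.05 to 0.48, adjusted p = 0.245). The low value was on the array with low villus enterocyte markers, and their part in it was not tested. Epha1 was lowest on that array too, but also lay at -0.735 and -0.9225 from the control mean on transgenic replicates 2 and 3.

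Of the other 12 Eph receptors and ephrins, all measured, only 4 remained when the dimmest 40% of genes were left out. With all genes kept 1 of the 12 passed in either direction, which is 8.33% against 11.9% of all genes. This was Efna3, a lipid-anchored ligand of EphA receptors like Efna4. Its log2 signals were 5.19, 5.28 and 5.30 on the transgenic arrays (row 10499545, chromosome 3), against 6.16, 6.27 and 6.43 on the controls. The groups were far apart and each was tight. Efna3 fell by 1.03, or 2.04-fold lower (SE 0.0981, limma adjusted p = 0.00324), by 1.00 without transgenic replicate 1, and its call held with each of the 6 arrays left out in turn (adjusted p up to 0.0261).

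Efna1, Efna3 and Efna4 stand side by side on chromosome 3 in the RefSeq table, in this order and with 0 protein-coding genes between neighbours. Efna3 and Efna4 were lower on all 3 transgenic arrays, by amounts that differed little between arrays (-1.09, -1.01 and -0.98 for Efna3, -0.65, -0.65 and -0.56 for Efna4). Efna1 at the end of the row was not lower on transgenic replicates 2 and 3.

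The 8 other Eph receptors gave 0 calls with all arrays and without transgenic replicate 1, against 11.9% and 28.6% of all genes. Several were dim, with control means of 4.33 for Epha3, 4.41 for Epha5 and 4.26 for Epha6. Epha4, which is also known from neurons, had log2 signals of 8.57, 6.12 and 6.24 on the transgenic arrays, and control arrays ran from 6.10 to 6.50, so that it was high on 1 array alone. Its difference was 0.67 with all arrays and -0.12 without that array (limma adjusted p = 0.618 and 0.567). Epha3, Epha5, Epha6, Epha7, Epha8, Epha10 and Ephb1 differed by -0.23 to 0.06, and the ephrins Efna2, Efna5 and Efnb3 by -0.10 to -0.02. A second row of Epha10 and one of Ephb1 differed by -0.07 and 0.07 and did not pass either.

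**Figure D2:**
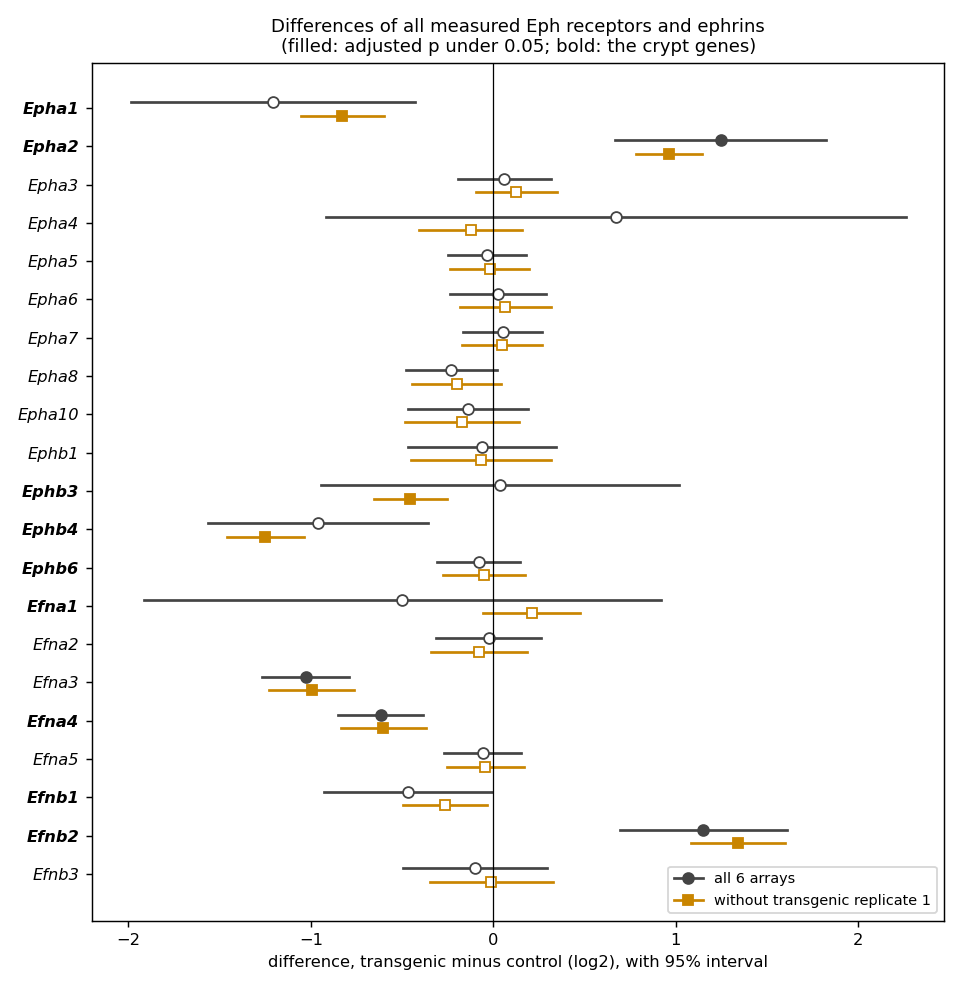
Difference, transgenic minus control, in log2 units (x axis) with its 95% interval for each of the 21 measured Eph receptors and ephrins, with all 6 arrays (circles) and without transgenic replicate 1 (squares). Filled marks for Epha2, Efnb2, Efna3 and Efna4 show adjusted p under 0.05 in both fits, and those of Epha1, Ephb3 and Ephb4 in the fit without that array.

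**Figure D3:**
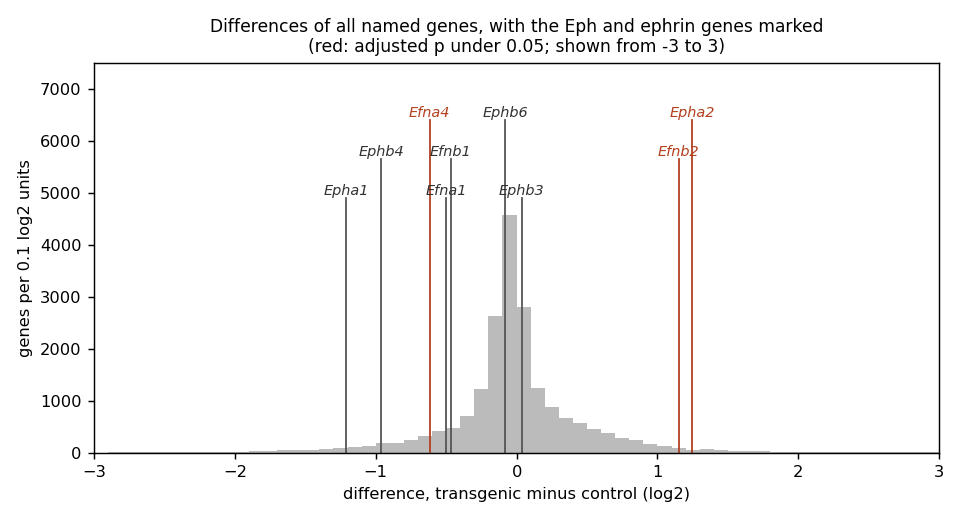
Number of named genes (y axis) by difference, transgenic minus control, in bins of a log2 difference (x axis), with the 9 crypt Eph receptors and ephrins marked. Epha2 and Efnb2 stand in the upper tail, with 98.3% and 98.0% of all genes lower, and Epha1 and Ephb4 in the lower tail, with 2.25% and 3.79% lower.

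Genes that carry the Eph signal inside cells changed in both directions. Of 29 measured genes of forward signalling and the cytoskeleton 9 passed, 3 higher and 6 lower, which is 31.0% against 11.9% of all genes. Their median difference was 0.00, against -0.04 over all genes. Without transgenic replicate 1, 17 of the 29 passed (8 higher, 9 lower), against 28.6% of all genes. These genes serve many receptors besides the Eph family, so their counts are not a measure of Eph signalling.

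Vav2, a signalling protein that binds activated Eph receptors, fell most among them. Its log2 signals were 7.06, 7.51 and 7.46 on the transgenic arrays, against 9.08, 8.92 and 8.78 on the controls, a fall by 1.58 or 2.99-fold lower (SE 0.15, limma adjusted p = 0.00323). Ngef, or ephexin, known for binding EphA receptors, had 7.57, 7.45 and 7.52 on the transgenic arrays, against 8.32, 8.21 and 8.30 on the controls, and fell by 0.76 (SE 0.0792, adjusted p = 0.00406). The adaptor Crk had 10.80, 10.88 and 10.82 on the transgenic arrays, against 10.03, 9.90 and 9.96 on the controls, and rose by 0.87 or 1.83-fold (SE 0.0779, adjusted p = 0.00285). For each of these 3 genes the groups lay far apart, and the call held with each array left out in turn.

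The Abl kinases, which act on the cytoskeleton downstream of Eph receptors, changed in opposite directions. Abl1 fell by 0.80 (SE 0.1, limma adjusted p = 0.00666) and its call held whichever array was left out. Abl2 rose by 1.02 (SE 0.24, adjusted p = 0.0455), with 8.55, 7.78 and 7.64 on the transgenic arrays against 6.99, 7.01 and 6.91 on the controls, and lost the call without transgenic replicate 2 or any 1 control (adjusted p up to 0.157). Inppl1, the lipid phosphatase SHIP2 that binds Epha2, fell by 0.79 (adjusted p = 0.0164), a call lost without control replicate 1 (0.0862) or 2 (0.0808). The adaptor Nck1 rose by 0.70 (adjusted p = 0.0201), and the adaptor Grb7 and the kinase Fyn fell by 1.12 and 0.66 (adjusted p = 0.0166 and 0.028). Vav2, Ngef, Crk, Abl1 and Inppl1 were named for having the smallest p of their list. Abl2, Nck1, Grb7 and Fyn were named after their values were seen, so all of these genes were picked by these data. Nck1 kept its call without transgenic replicate 1 but not without any other array (adjusted p up to 0.0892), Grb7 needed all 3 controls (up to 0.0838 otherwise), and Fyn lost it without transgenic replicate 2 or 3 or control replicate 1 or 3 (up to 0.12).

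Partners of ephrins were read from 16 measured genes of reverse signalling, PDZ binding and shedding. With all arrays 1 of them passed, the adherens junction gene Cdh1, which is 6.25% against 11.9% of all genes. Cdh1 rose by 0.34 (SE 0.0766, limma adjusted p = 0.0415) and kept its call without transgenic replicate 1 only (0.37, adjusted p = 0.00899, up to 0.161 without another array). Rgs3, which binds B-type ephrins, had a difference of -0.67 (adjusted p = 0.169, not passed) and fell by 0.37 without transgenic replicate 1 (adjusted p = 0.0138), while a second row of it differed by -0.44 and passed when all rows were tested (adjusted p = 0.044). The junction scaffold Tjp1 differed by 0.27, the Wnt and ephrin-B adaptor Dvl2 by 0.34 and the junction protein Afdn by -0.23, none of which passed with all arrays. Afdn fell by 0.35 without transgenic replicate 1 (adjusted p = 0.0148). In that fit 6 of the 16 passed (2 higher, 4 lower), which is 37.5% against 28.6% of all genes.

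Wnt target and crypt base genes, the setting in which EphB receptors are known to be expressed, gave 4 calls among 20 measured genes, 1 higher and 3 lower (20% against 11.9% of all genes), with Msi1 left out as the transgene. Olfm4, a marker of crypt base cells, had 8.61, 8.20 and 8.15 on the transgenic arrays, against 11.68, 11.50 and 11.89 on the controls, and fell by 3.37 (limma adjusted p = 9.31e-04), a call that held whichever array was left out. Ascl2, a Wnt target that controls stem cell identity, had 5.84, 5.40 and 5.87 on the transgenic arrays, against 6.54, 6.75 and 6.91 on the controls, and fell by 1.03 (adjusted p = 0.0142). This call was lost without control replicate 2 (0.0734) or 3 (0.0632). Sp5, a Wnt target, fell by 0.65 (adjusted p = 0.0286, kept without transgenic replicate 1 only and up to 0.118 otherwise). Rgmb, a BMP co-receptor of crypt base cells, rose by 0.51 (adjusted p = 0.0239, up to 0.11, lost without transgenic replicate 2 or 3 or control replicate 1 or 2). Without transgenic replicate 1, 11 of the 20 passed, 2 higher and 9 lower (55% against 28.6% of all genes, 14.0% higher and 14.5% lower), and Ephb3 passed as lower in the same fit.

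**Figure D4:**
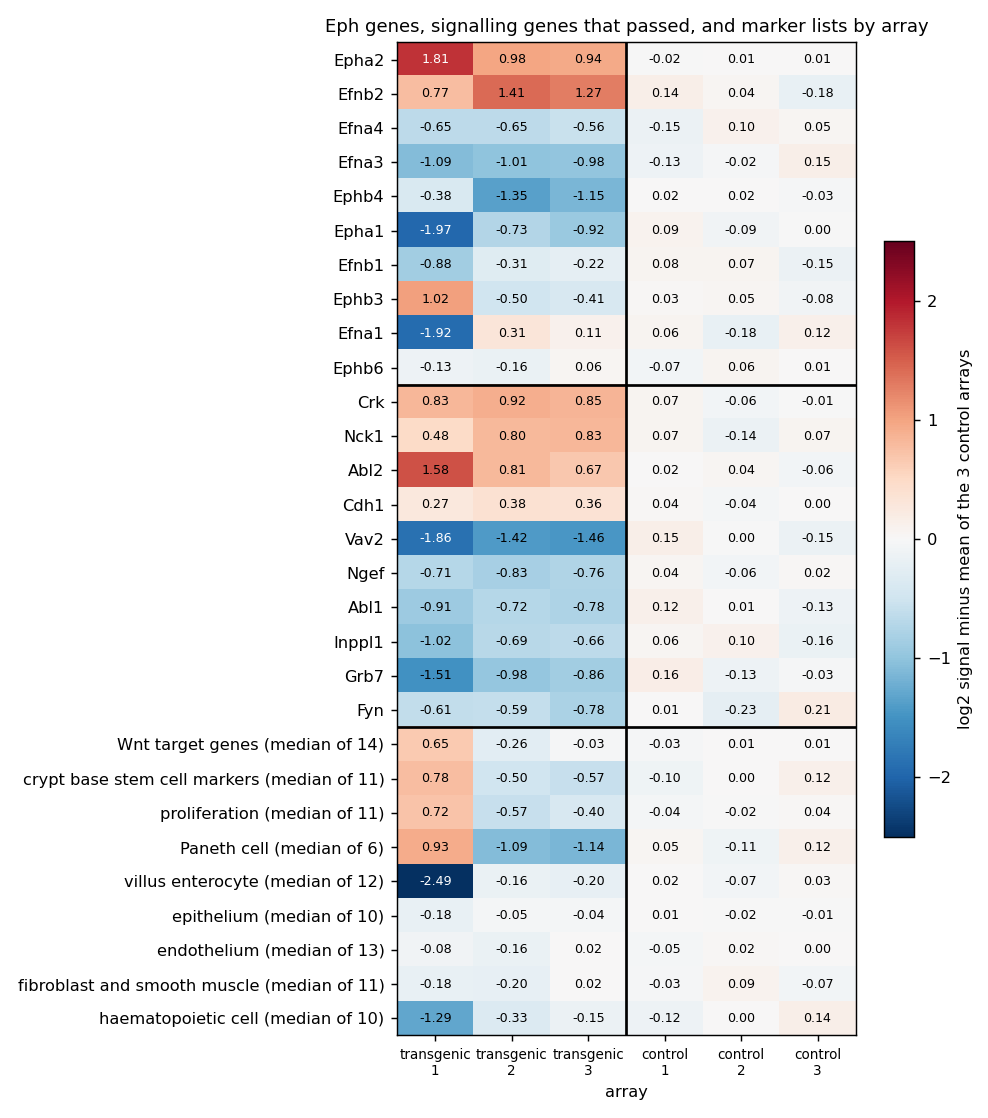
Log2 signal minus the mean of the 3 control arrays (colour and printed value) on each array (columns, transgenic left of control) for the Eph and ephrin genes, the Eph signalling genes that passed, and the medians of marker lists. Ephb3 follows the medians of the crypt lists, though not every gene in them, in being high on transgenic replicate 1 alone. Efna1 and Epha1 are lowest on that array as the villus list is, and Efna3 and Efna4 are close to equal on all 3 transgenic arrays.

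Markers of other cells that the preparation could hold were compared beside these values. Of 11 fibroblast and smooth muscle markers 1 passed (9.09% against 11.9% of all genes), Vim, which fell by 0.89 (limma adjusted p = 0.0227, lost without transgenic replicate 2 or any 1 control, up to 0.101), and the list mean was 6.12 to 6.30 on the transgenic and 6.33 to 6.49 on the control arrays. Without transgenic replicate 1 both Vim and Dcn passed as lower, with differences of -0.71 and -0.59 (18.2% of the list against 28.6% of all genes), Dcn being named after its value was seen. Of 10 haematopoietic markers 0 passed with all arrays, against 11.9% of all genes, and the list mean was 5.34, 6.62 and 6.59 on the transgenic arrays, against 6.68 to 6.89 on the controls. On transgenic replicate 1, 8 of these 10 markers were below all controls, as were 45.6% of all genes. Leaving that array out, 6 of the 10 passed (60% against 28.6% of all genes), 5 of them lower and 1 higher. The lower ones were the leukocyte gene Ptprc (-0.64), the T cell receptor complex genes Cd3e (-0.48) and Cd3g (-0.72), Cd8a (-0.62) and the integrin Itgae of intraepithelial lymphocytes (-0.80), and the higher one was the myeloid integrin Itgam (0.71). Ephb3, Ephb4 and Epha1 passed as lower in the same fit, and the part of these cells in their values was not tested. Ptprc, Itgae and Itgam were named after their values were seen. Epha2, Efnb2 and Efna4 kept their direction without that array, as given above, and the part of other cells in their values was not tested.

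The genes whose values on the 6 arrays were closest to those of the members that passed were also looked up, each gene taken minus its control mean. For Epha2 these were Gxylt1, a xylosyltransferase known to act on Notch-type EGF repeats, and the mitochondrial phosphatase Pgam5, which rose by 1.27 each and lay at root mean square distances of 0.03 and 0.05 log2 units. For Efna4 they were Hsd11b2, which inactivates glucocorticoids, and Galnt11, which starts O-linked glycans, with differences of -0.61 and -0.62 and distances of 0.06 each. For Efnb2 they were the vesicle adaptor subunit Ap4b1 and the DNA repair nuclease Dclre1b, with differences of 1.20 and 1.18 and distances of 0.07 and 0.09. This is a description over 6 arrays that fall into 2 groups.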

How the data were processed

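Total RNA (250 ng) was amplified and hybridised to Affymetrix gene arrays, per the labels' protocols. What the authors deposited is 1 table of log2 values, a scale read from their range of 2.41 to 13.5. RMA and Partek 6.5 are named, without settings, in the submitters' processing notes. RMA scales all arrays to nearly one distribution and compresses low signals, so a change in total RNA cannot show and small signals understate differences. Array medians ran from 6.27 to 6.34, and the 3 arrays per group limit the precision. Samples were grouped by their titles. The series text calls them animals.

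Of 35399 rows, 21789 had 1 gene symbol in the platform annotation, 1621 several and 11989 none, and the rule of 1 symbol and the row with the highest mean gave 19938 genes without a filter. Differences, transgenic minus control, were tested two-sided with limma 3.58.1 in R 4.3.3 (lmFit, eBayes), Benjamini-Hochberg adjusted over all genes. Passing means an adjusted p under 0.05, and rose and fell are used of such genes. Every adjusted p is from this test. An exact permutation test of 3 against 3 cannot go below p = 0.1. Promoter windows come from RefSeq, build GRCm38.p6, and all 9 genes matched by symbol.

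Named were the members, Msi1, Msi2, the rest of the family, up to 5 genes per list by smallest p, marker genes by the highest mean or a call, and the 2 closest profiles per member that passed. Members and lists were chosen with earlier results of these data known. The alternatives were other scalings, a filter on dim genes, blocks on either replicate number, other variance settings, array weights, row means, an adjusted p under 0.1, all rows, and each array left out.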

Additional observations from a re-analysis of the deposited data

How the results depend on the processing

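The main counts of genes that passed were 3 of the 9 Eph receptors and ephrins, 1 of the 12 others of the family, 10 of 45 signalling genes, 4 of 20 Wnt target and crypt base genes and 2368 of all genes. Quantile normalization, equal array medians, row means, a trended robust variance and testing of all rows kept the first count at 3. Leaving out the dimmest 40% of genes gave 5 Eph and ephrin genes and 0 of the 4 others kept, since Efna3 was among the genes removed. In that fit 2340 of the 11963 genes kept passed. An adjusted p under 0.1 gave 5 Eph and ephrin genes, and 3409 of all 19938 genes. Array weights gave 5 of these, 22 signalling genes and 5770 of all genes. The labels state no pairing of the samples. Arrays of the same title number had correlations of deviations of -0.07, -0.17 and -0.12, too few values to decide whether they were paired. A replicate block on the title numbers gave 0 Eph and ephrin genes, 3 signalling genes and 1 Wnt target and crypt base gene. With it 733 of all genes passed. A block on the description numbers gave 5 Eph and ephrin genes, 12 signalling genes and 8 Wnt target and crypt base genes. With it 4019 of all genes passed. Transgenic replicate 1 and control replicate 1 share their description number with no other array, so this fit draws the difference from the other arrays only. It also leaves little replication to estimate the spread of each gene, so its adjusted p lean on the spread shared across genes. Leaving out each array in turn gave 0 to 6 Eph and ephrin genes, 4 to 23 signalling genes, 1 to 11 Wnt target and crypt base genes and 683 to 5700 of all genes. The count of Eph and ephrin genes was 6 without transgenic replicate 1, where 5700 of all genes passed. It was 2 without transgenic replicate 3 (1759 of all genes) and 1 without control replicate 1 (683). It was 0 without transgenic replicate 2 (1169 of all genes) or control replicate 2 (728) or 3 (879). These fits have fewer samples.

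The difference of Ephb3 was of the opposite sign with the description block (-0.44), with array weights (-0.42), without transgenic replicate 1 (-0.45) and without control replicate 3 (-0.0037), over a range of -0.45 to 0.31 with each array left out. That of Efna1 was positive with the description block (0.24), with array weights (0.13) and without transgenic replicate 1 (0.21), over a range of -0.90 to 0.21 with each array left out. The cause of these reversals was not tested. With 3 arrays a group, none of the calls of Epha2, Efnb2 and Efna4 held with every array left out. Detection over background is not known for these values, which limits what can be said of dim genes such as Efna3 and Ephb6.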
